A study of Mus musculus with 12 samples.

Results

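The 10 genes described here code for products that mouse yolk sac endoderm is known for: the carrier proteins Afp, Ttr and Rbp4, the apolipoproteins Apoa1, Apoa4, Apob, Apoc2 and Apoe, and the uptake receptor proteins Amn and Cubn. Probe sets were taken where the platform annotation paired them with 1 gene symbol and that symbol was one of the 10. This gave 23 of the 45101 probe sets on the array, and 10 of the 18193 genes measured. Afp had 5 probe sets, Ttr and Apoa1 had 4 each, Apoa4, Apob and Cubn had 2 each, and the other genes had 1 each. The genes were chosen with their values on these arrays known: Afp and Ttr because 1 mutant positive array stood apart, and Apoe because it did not follow the others. Values from the mutant positive arrays, and every value of Apoe, are therefore given as descriptions with no test.

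Expression was measured on 12 arrays from mouse embryos at embryonic day 8.0, 3 arrays in each of 4 groups. The groups were EYFP-positive and EYFP-negative cells of ER71 mutant embryos and EYFP-positive and EYFP-negative cells of ER71 wild-type embryos. ER71, also called Etv2, is an ETS transcription factor needed for endothelial and blood development, and EYFP is a yellow fluorescent protein. All 4 groups came from the reporter line named ER71 EYFP, on a mixed C57BL/6 and FVB background. In all 4, a trypsin digest gave single cells for sorting (BD FACSAria), and Trizol total RNA went through 2 rounds of amplification and biotin labelling. The labels do not say which promoter drives EYFP, which part of ER71 the mutant allele lacks, or whether the yolk sac was kept with the embryo. Nor is it stated if a group's samples were separate embryos, pools or repeats, so p-values cover only the spread among these arrays, which may be technical.

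Visceral endoderm is the epithelium that covers the early embryo and lines the outer face of the yolk sac. Before the liver and placenta work, it takes up maternal proteins from the surrounding fluid and secretes plasma proteins and lipoproteins. Uptake runs through cubilin, amnionless and megalin (Lrp2), and secretion includes alpha-fetoprotein, transthyretin, retinol-binding protein and apolipoproteins. Afp, Ttr and Apob expression in this tissue is known to depend on hepatic regulators of the HNF1, HNF4 and forkhead (Foxa) families. Apoe is made by many cell types besides endoderm, macrophages among them.

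The stretches upstream of 4 of these genes are shown because Afp, Apoa1 and Rbp4 were among the genes high on 1 mutant positive array while Apoe had a different pattern. They are from RefSeq, build GRCm38.p6, and hold the 200 bases before a transcription start, read 5′ to 3′ on the gene's strand. The RefSeq promoter table held 9 of the 10 genes, in 12 windows, and Ttr had no entry. Capitals mark matches on either strand to TATAAA (the core of the TATA box), GTTAAT (part of the HNF1 site) or TGTTTGC (a forkhead site). Apoa1 has 2 forkhead matches. Afp is at chr5:90490514-90490713 (plus strand), Apoa1 at chr9:46228430-46228629 (plus), Rbp4 at chr19:38124812-38125011 (minus) and the Apoe start shown at chr7:19699189-19699388 (minus).
Afp: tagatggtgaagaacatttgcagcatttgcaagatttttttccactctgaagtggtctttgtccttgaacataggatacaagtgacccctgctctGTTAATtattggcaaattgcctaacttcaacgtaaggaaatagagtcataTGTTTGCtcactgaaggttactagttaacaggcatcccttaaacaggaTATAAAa
Apoa1: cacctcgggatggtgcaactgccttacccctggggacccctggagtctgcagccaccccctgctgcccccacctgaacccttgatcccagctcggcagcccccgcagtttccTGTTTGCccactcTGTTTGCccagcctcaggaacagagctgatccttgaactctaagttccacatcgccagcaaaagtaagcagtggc
Rbp4: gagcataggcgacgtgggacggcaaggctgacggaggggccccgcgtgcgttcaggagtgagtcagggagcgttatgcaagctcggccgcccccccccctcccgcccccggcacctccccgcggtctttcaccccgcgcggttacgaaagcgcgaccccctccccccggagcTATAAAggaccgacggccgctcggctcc
Apoe: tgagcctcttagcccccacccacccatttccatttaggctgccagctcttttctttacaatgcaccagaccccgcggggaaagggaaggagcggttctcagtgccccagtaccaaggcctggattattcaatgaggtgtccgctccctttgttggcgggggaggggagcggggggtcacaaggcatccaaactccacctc

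Of the 32851 windows of the same length outside chromosome 18, 9.96% held TATAAA, 5.06% GTTAAT and 3.35% TGTTTGC on either strand. Among the 12 windows of the described genes, TATAAA was in 4 (1 each of Afp, Apob, Rbp4 and Apoe), GTTAAT in 3 (Afp, Apoc2 and 1 of Apoe) and TGTTTGC in 3 (Afp, Apoa1 and Apob). AGATAA, a site of GATA factors, was in 7.8% of all windows and in 0 of these 12. The Afp window held 3 of these motifs, and the Apoe window printed above held none of the 4. It was the only Apoe window without a match: of those not printed, 1 held GTTAAT and 1 TATAAA. For Rbp4 the printed window held TATAAA and the window not printed held no match. The printed windows are therefore no comparison of motifs between these genes. A match is a run of letters and not a measured binding site.

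The labels could be checked against Etv2 itself, at its 1 probe set. Its log2 values lay between 7.26 and 7.40 in mutant positive cells, 7.24 and 7.49 in mutant negative cells, 10.70 and 11.36 in wild-type positive cells, with 7.50 and 7.85 in wild-type negative cells. Same-group arrays correlated at 0.981 to 0.991 over all probe sets, and the mutant positive array numbered 1 correlated with its group at a mean of 0.984, against 0.986 and 0.984 for the other mutant positive arrays. Its 3′ minus 5′ actin difference, a measure of RNA integrity, was 1.57 on the log2 scale, where those arrays had 1.40 and 1.62. Both wild-type arrays numbered 1 stood apart by sex-linked genes: Y-linked Eif2s3y was 10.81 on the positive and 11.23 on the negative array, against 4.11 to 4.53 on the other 10 arrays. X-inactivation transcript Xist was 10.33 and 8.19 there, against 13.36 to 13.98. The values are log2 expression values made by the authors, and they compare arrays for 1 probe set but not different probe sets or genes with each other. The 25th percentile of all probe sets lay between 5.62 and 5.69 on every array, and values under it are called dim here. Each gene is given at its brightest probe set unless another is named.

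Afp, the albumin-like fetal plasma protein, had 11.98, 5.02 and 4.03 in mutant positive cells, 10.07, 11.06 and 10.65 in mutant negative cells, 4.34, 4.29 and 4.30 in wild-type positive cells, with 9.74, 10.67 and 9.34 in wild-type negative cells. It was dim on 5 arrays, all EYFP-positive, and high on every EYFP-negative array. The mutant positive array numbered 1 was higher than all 6 EYFP-negative arrays. Ttr, which carries thyroid hormone and the retinol-binding protein, had 12.21, 5.58 and 5.79 in mutant positive cells, 11.55, 11.23 and 11.85 in mutant negative cells, 5.72, 5.14 and 6.74 in wild-type positive cells, with 10.91, 11.76 and 10.83 in wild-type negative cells. Its group means had the same order, with the same single positive array at the top. Rbp4, the plasma carrier of retinol, had 10.76, 8.12 and 7.96 in mutant positive cells, 10.06, 10.11 and 9.66 in mutant negative cells, 7.37, 6.91 and 7.23 in wild-type positive cells, with 9.58, 10.28 and 9.09 in wild-type negative cells. Unlike Afp and Ttr, Rbp4 was not dim on any array.

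**Figure D1:**
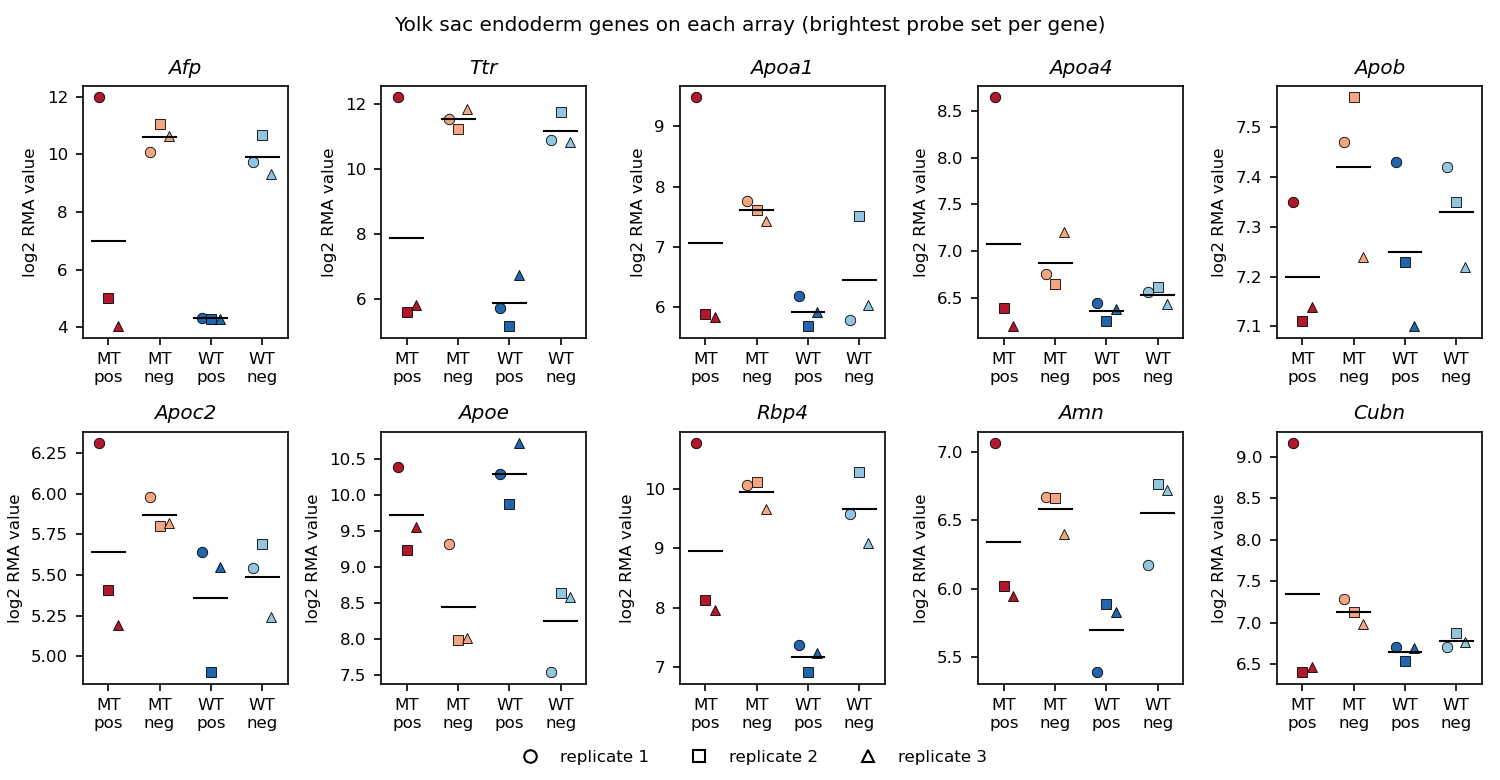
Each panel plots 1 gene on the 12 arrays as log2 expression values at its brightest probe set, with a symbol for each replicate number and a line at the group mean. Mutant positive replicate 1 is at the top of 8 of the 10 panels, while Apob shows little spread and Apoe is higher in EYFP-positive cells. The vertical axes differ between panels and do not start at 0.

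Apoa1, the main protein of high-density lipoprotein, had 9.48, 5.89 and 5.84 in mutant positive cells, 7.76, 7.62 and 7.43 in mutant negative cells, 6.18, 5.68 and 5.92 in wild-type positive cells, with 5.79, 7.52 and 6.04 in wild-type negative cells. The mutant negative arrays lay together, while 1 of the wild-type negative arrays was high and the other arrays of that group were near the wild-type positive level. Apoa4, an apolipoprotein of intestinal and yolk sac lipoproteins, had 8.64, 6.40 and 6.20 in mutant positive cells, 6.76, 6.65 and 7.21 in mutant negative cells, 6.45, 6.26 and 6.39 in wild-type positive cells, with 6.57, 6.62 and 6.44 in wild-type negative cells. Apart from the first array, its values spanned little more than 1 log2 unit. Apoc2, the cofactor of lipoprotein lipase, had 6.31, 5.41 and 5.19 in mutant positive cells, 5.98, 5.80 and 5.82 in mutant negative cells, 5.64, 4.90 and 5.55 in wild-type positive cells, with 5.54, 5.69 and 5.24 in wild-type negative cells, and was dim on 7 of the 12 arrays.

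Apob, the structural protein of low-density lipoprotein, was measured by probe sets that disagreed. The brighter one had 7.35, 7.11 and 7.14 in mutant positive cells, 7.47, 7.56 and 7.24 in mutant negative cells, 7.43, 7.23 and 7.10 in wild-type positive cells, with 7.42, 7.35 and 7.22 in wild-type negative cells, and its groups overlapped. The second one (1455593_at) had 8.37, 5.70 and 5.67 in mutant positive cells, 6.93, 7.51 and 6.05 in mutant negative cells, 5.55, 6.39 and 5.45 in wild-type positive cells, with 5.98, 6.69 and 6.28 in wild-type negative cells. At this probe set the first mutant positive array was the highest of the 12, as it was for Afp, so whether Apob followed the other genes depended on the probe set.

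Amn, which anchors cubilin at the cell surface, had 7.06, 6.02 and 5.95 in mutant positive cells, 6.67, 6.66 and 6.40 in mutant negative cells, 5.39, 5.89 and 5.83 in wild-type positive cells, with 6.17, 6.76 and 6.72 in wild-type negative cells. All negative arrays were above all wild-type positive arrays. Cubn, the uptake receptor cubilin, had 9.16, 6.40 and 6.46 in mutant positive cells, 7.29, 7.13 and 6.98 in mutant negative cells, 6.71, 6.54 and 6.69 in wild-type positive cells, with 6.70, 6.88 and 6.77 in wild-type negative cells. Its second probe set (1426990_at) was dim on 11 arrays and reached 5.73 on the first mutant positive array.

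Apoe, a lipoprotein ligand for receptors of the LDL receptor family, had 10.38, 9.23 and 9.55 in mutant positive cells, 9.31, 7.99 and 8.01 in mutant negative cells, 10.28, 9.87 and 10.71 in wild-type positive cells, with 7.54, 8.64 and 8.58 in wild-type negative cells. Wild-type positive arrays were all above wild-type negative arrays, which is the opposite of Afp, Ttr and Rbp4. In mutants 1 negative array was above 1 positive array, so those groups overlapped.

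Different probe sets of a gene mostly followed the same order of arrays but differed in size. For Afp, 1416646_at and 1436879_x_at had the first mutant positive array at 9.92 and 10.50, above all other arrays. Afp probe set 1436880_at stayed dim on all 12 arrays and 1436881_x_at ranged from 5.11 to 6.22, neither with that array at the top. Of the Ttr probe sets, 1451580_a_at moved least, between 8.07 and 9.84. All 4 Apoa1 probe sets had the first mutant positive array highest, at 9.48, 8.89, 9.67 and 9.58.

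**Figure D2:**
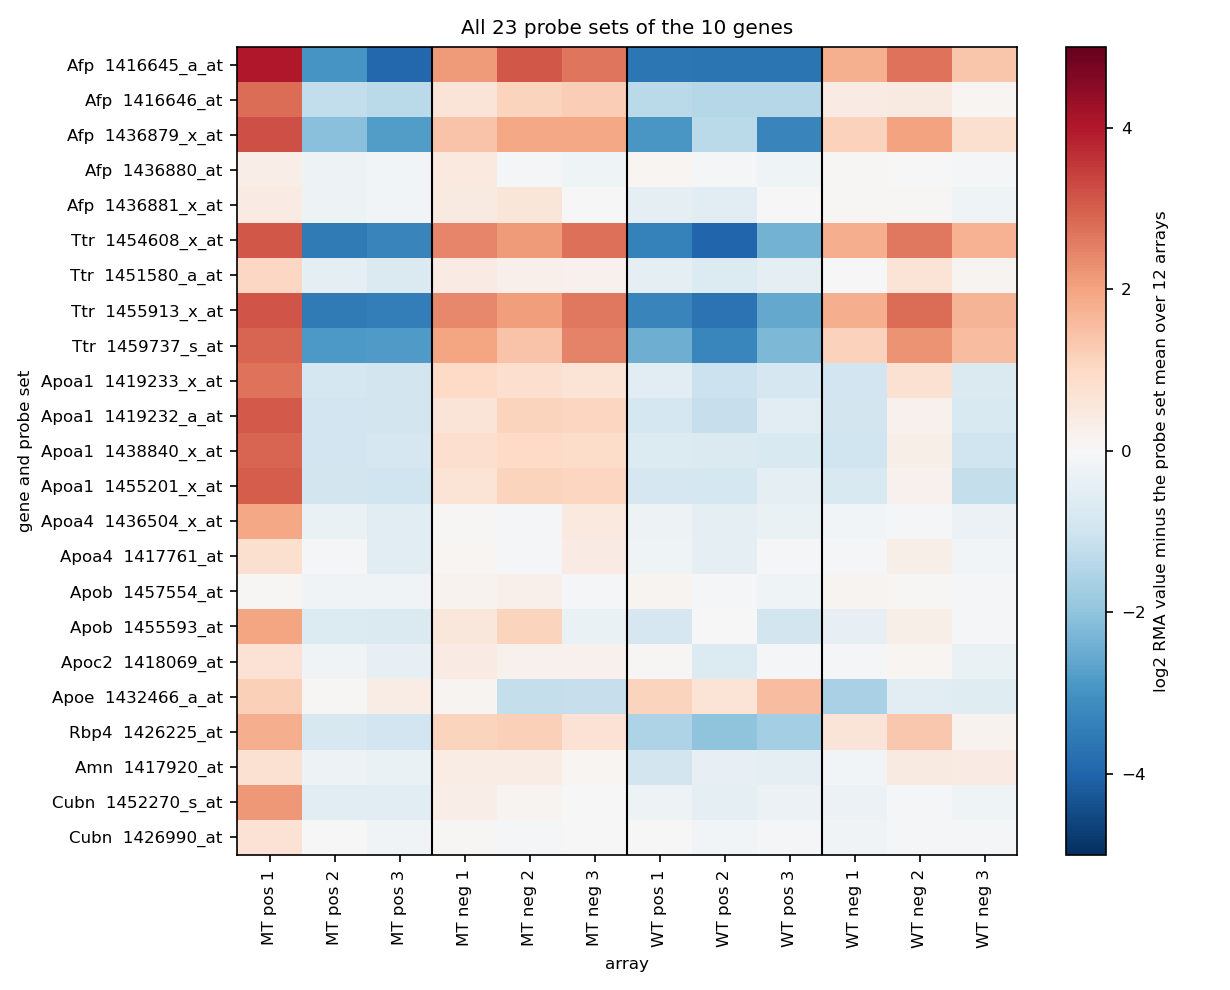
The map shows all 23 probe sets as log2 expression values minus the probe set's mean over the 12 arrays, with red above and blue below that mean. The first column, mutant positive replicate 1, is the highest of the 12 arrays for 19 probe sets, and the Apoe row is red in the wild-type positive columns where Afp, Ttr and Rbp4 are blue.

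EYFP-positive cells were first set against EYFP-negative cells in wild-type embryos, a comparison that holds no mutant positive array. Afp, Ttr and Rbp4 fell in wild-type positive cells, 0 of the 9 genes tested rose, and 6 did not pass. Afp averaged 4.31 ± 0.03 in wild-type positive cells, against 9.92 ± 0.68 in wild-type negative cells (SD, n = 3 each), a log2 difference of -5.61 ± 1.52 (SE) or 48.8-fold, with a limma adjusted p = 0.0442. As the positive arrays were dim for Afp, the size of its fold is less certain than its sign. That size also depended on the probe set: the others differed by -1.72, -3.83, -0.04 and -0.30. Ttr averaged 5.87 ± 0.81 in wild-type positive cells, against 11.17 ± 0.51 in wild-type negative cells, a difference of -5.30 ± 1.34 or 39.3-fold (limma adjusted p = 0.0328). The other Ttr probe sets differed by -5.29, -4.29 and -0.82, and Ttr was dim on 2 arrays at its brightest one. With all probe sets fitted without collapse to genes, no Afp or Ttr probe set passed (limma adjusted p from 0.0574 to 0.964). Rbp4 averaged 7.17 ± 0.23 in wild-type positive cells, against 9.65 ± 0.60 in wild-type negative cells, a difference of -2.48 ± 0.60 or 5.58-fold (limma adjusted p = 0.0245). Of all 18193 genes, 3.61% were called lower and 4.63% higher. In bulk samples like these, fewer cells of a type and less RNA per cell cannot be told apart.

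Amn averaged 5.70 ± 0.27 in wild-type positive cells, against 6.55 ± 0.33 in wild-type negative cells, and its difference of -0.85 ± 0.28 did not pass, with a limma adjusted p = 0.0947. It passed when same-numbered positive and negative arrays were kept as pairs (adjusted p = 0.0189). The differences of Apoa1 (-0.52 ± 0.80), Apoa4 (-0.18 ± 0.48), Apob (-0.08 ± 0.12), Apoc2 (-0.13 ± 0.27) and Cubn (-0.14 ± 0.55) also did not pass, with limma adjusted p from 0.827 to 0.944. Apoe, given as a description, averaged 10.29 ± 0.42 in wild-type positive cells, against 8.25 ± 0.62 in wild-type negative cells, 4.1-fold higher. Without overlap between the groups, 4 genes were lower (Afp, Ttr, Rbp4 and Amn), where 13.3% of all genes were lower without overlap. Apoe was higher without overlap, as were 11.9% of all genes. The median difference of the 10 genes was -0.35, against -0.02 over all genes.

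These calls depended on single arrays, since all groups share 1 estimate of the spread and the mutant positive arrays of Afp had an SD of 4.33. Without the first mutant positive array the differences were the same and the SEs smaller, and 4 genes were called, with limma adjusted p = 4.98e-06 for Afp, 8.77e-06 for Ttr, 0.000176 for Rbp4 and 0.016 for Amn. That array was known beforehand to stand apart for Afp and Ttr. Leaving it out was bound to shrink their spread, so these p-values are no added support. With that array kept, 0 genes were called when any one of the wild-type positive arrays, or the wild-type negative array numbered 1 or 2, was left out, and 1 when the wild-type negative array numbered 3 was. Leaving out any one mutant negative array ended the Afp call, with limma adjusted p = 0.0609, 0.0579 and 0.0628. Without both wild-type arrays numbered 1, which stood apart by sex-linked genes, 0 were called, and the Afp difference was -5.71 (limma adjusted p = 0.212). Those arrays also had the highest actin differences, 3.05 and 3.14, with 2.72 on mutant negative 2 and 2.62 on wild-type positive 2 next. Fitted on the wild-type arrays alone, Afp, Ttr and Rbp4 had limma adjusted p = 7.15e-05, 0.000426 and 0.00249. That fit leaves out the first mutant positive array too, so these p-values are likewise no added support.

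EYFP-negative cells of mutants and wild types were compared next. None of the 9 genes tested passed in limma, and 0 had an unadjusted p under 0.05. Of all genes 0% were called in either direction, with 949 genes at an unadjusted p under 0.05. Apoa1 averaged 7.61 ± 0.16 in mutant negative cells and 6.45 ± 0.93 in wild-type negative cells (SD, n = 3 each), a difference of 1.16 ± 0.80 (SE, limma adjusted p = 0.937). Its other probe sets differed by 1.43, 1.49 and 1.54, each with all mutant arrays above all wild-type arrays, and none passed. Afp averaged 10.59 ± 0.50 in mutant negative cells and 9.92 ± 0.68 in wild-type negative cells, a difference of 0.68 ± 1.52. The remaining differences were 0.38 for Ttr, 0.29 for Rbp4, 0.33 for Apoa4, 0.38 for Apoc2, 0.35 for Cubn, 0.10 for Apob and 0.03 for Amn, and 0.19 for Apoe, which was not tested. Apoa4, Apoc2 and Cubn were higher in mutant negative cells without overlap, 3 of the 10 genes, where 7.2% of all genes were higher and 4.01% lower without overlap. The median difference was 0.34, against 0.03 over all genes.

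The mutant positive arrays are described without a test. Mutant positive minus mutant negative means gave -3.58 for Afp, -3.68 for Ttr, -0.99 for Rbp4, -0.54 for Apoa1 and 1.28 for Apoe, with 0 of the 10 genes separated without overlap, where 8.48% of all genes were higher and 11% lower without overlap. Mutant positive minus wild-type positive means gave 2.70 for Afp, 1.99 for Ttr, 1.78 for Rbp4, 1.14 for Apoa1, 0.64 for Amn and -0.57 for Apoe. Rbp4 and Amn were higher in mutant positive cells without overlap, 2 of the 10, where 13.8% of all genes were. Each of these means is shaped by the first mutant positive array. The SD of the mutant positive group was 4.33 for Afp and 3.77 for Ttr, against 0.03 and 0.81 in the wild-type positive group.

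With the first array set aside, the other mutant positive arrays lay near the wild-type positive arrays for most of the genes. Their mean minus the wild-type positive mean was 0.22 for Afp, -0.18 for Ttr, -0.06 for Apoa1, -0.06 for Apoa4, -0.13 for Apob, -0.06 for Apoc2, 0.28 for Amn and -0.21 for Cubn. Rbp4 was 0.87 higher and Apoe 0.89 lower on those arrays: the Rbp4 values of 8.12 and 7.96 were both above the wild-type positive maximum of 7.37, and the Apoe values of 9.23 and 9.55 were both below the wild-type positive minimum of 9.87. Against the mutant negative mean the same arrays differed by -6.07 for Afp, -5.86 for Ttr, -1.90 for Rbp4, -1.74 for Apoa1 and 0.95 for Apoe.

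The first mutant positive array was the highest of the 12 for 8 of the 10 genes, where 11.1% of all genes had their highest value there. At its brightest probe set Apob was below the highest EYFP-negative array there. The first mutant positive array exceeded the higher of the other mutant positive arrays by 6.96 log2 units for Afp (125-fold) and 6.42 for Ttr (85.9-fold). It did so by 3.59 for Apoa1 (12-fold), 2.70 for Cubn (6.51-fold), 2.64 for Rbp4 (6.25-fold) and 2.24 for Apoa4 (4.71-fold). For Afp the array it was set against was dim, at 5.02, so the size of that gap is uncertain. Smaller gaps were seen for Amn (1.04), Apoc2 (0.90), Apoe (0.83) and Apob (0.21, or 2.67 at its second probe set). Amn lay just inside and Apoc2 just outside a gap of 1 log2 unit, which 7 of the 10 genes passed and 65 of all genes did, or 0.357%.

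Relative to the highest EYFP-negative array the order of the genes differed. Cubn exceeded it by 1.87 log2 units, Apoa1 by 1.71, Apoa4 by 1.43, Apoe by 1.07, Afp by 0.92, Rbp4 by 0.48, Ttr by 0.37, Apoc2 by 0.33 and Amn by 0.30. Afp and Ttr, with the largest gaps over their own group, thus exceeded the EYFP-negative arrays by under 1 log2 unit. All of these values come from 1 array, so they have no replicate.

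**Figure D3:**
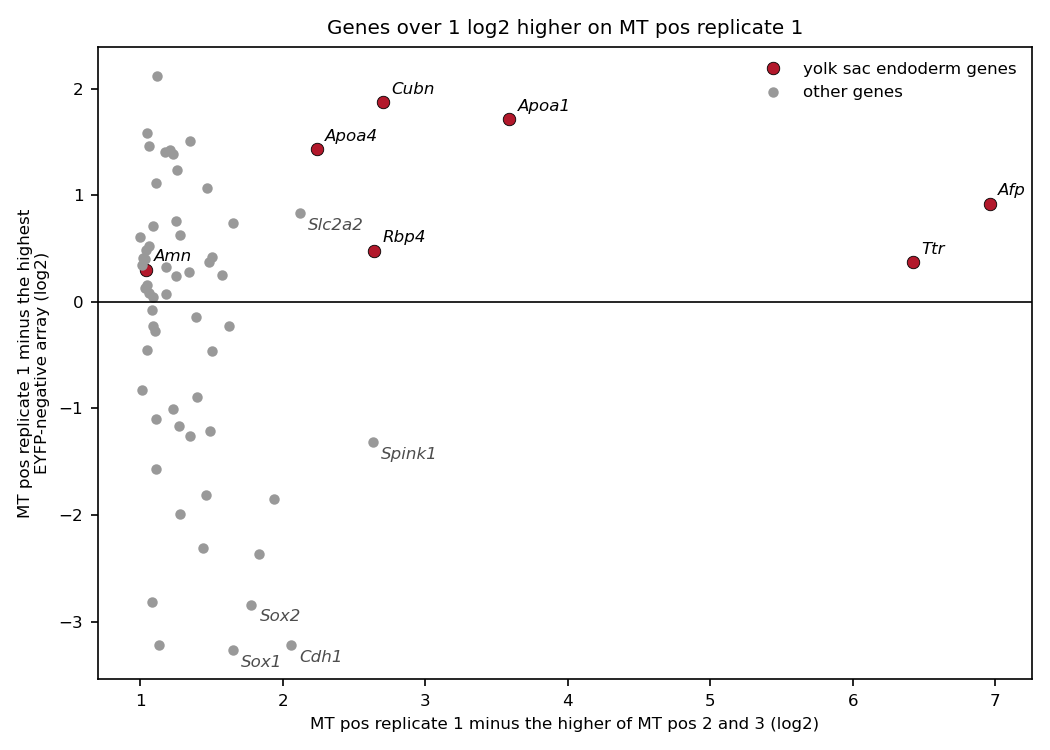
Each point is 1 of the 65 genes whose value on mutant positive replicate 1 was over 1 log2 unit above both other mutant positive arrays. The horizontal axis gives that gap and the vertical axis the difference from the highest EYFP-negative array, both in log2 units. The 7 yolk sac endoderm genes all lie above 0 on the vertical axis, as do 32 of the 58 other genes.

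The non-member genes with the largest gaps on that array were Spink1 (2.63), a secreted trypsin inhibitor, Slc2a2 (2.12), a glucose transporter of endoderm, Cdh1 (2.06), the epithelial cadherin, Irs4 (1.94), Eras (1.83), Sox2 (1.78), Spp2 (1.65), Sox1 (1.65), Npl (1.62) and Ctsh (1.57). Of these, Slc2a2, Spp2 and Ctsh were above all EYFP-negative arrays. Cdh1 was 7.74 there, against 9.70 to 10.96 on EYFP-negative arrays, and Sox2 was 9.65, against 11.98 to 12.49. Sox1, a neural marker, was 6.97, against 9.65 to 10.24. Of the 3 wild-type positive arrays, 2 lay above the first mutant positive array for Sox2, at 10.17 and 10.34, and 1 did for Sox1.

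Marker lists of other cell types are given beside this array as the mean log2 value of a list. The 7 epithelial markers averaged 9.21 on it, with 8.35 and 8.38 on its group's other arrays, 9.35 to 10.19 in mutant negative cells, 7.84 to 8.08 in wild-type positive cells, with 9.78 to 9.95 in wild-type negative cells. Of the 7, Krt8, Krt18 and Krt19, which are epithelial keratins, had their highest value of the 12 arrays on it, and the other 4 lay below every EYFP-negative array. These keratins exceeded the higher of the other mutant positive arrays by only 0.08, 0.36 and 0.78. The mean of those other arrays minus the mutant negative mean was 1.06 for Krt8, 0.77 for Krt18 and -0.17 for Krt19. The 4 neural markers averaged 8.18 on it, with 6.98 and 6.58 on its group's other arrays, 6.98, 8.64 and 8.08 in wild-type positive cells and 10.17 to 10.82 on EYFP-negative arrays. The 5 parietal endoderm markers averaged 9.71, against 9.60 and 9.56. The 9 macrophage markers averaged 6.25 on it, against 6.12 and 6.19, with Cd68, Ptprc and C1qb dim on all 12 arrays. A list of 4 visceral endoderm markers that are no members (Ihh, Rhox5, Dpp4 and Lgals2) averaged 7.93 on it, against 7.67 and 8.18. Of these 4, 1 (Lgals2) was highest of the 12 arrays there. These 4 do not stand for the whole tissue, as more of its genes are in the pathway lists described further on. Highest there were 1 of 8 endoderm regulators and 3 of 13 other secreted proteins. So were 2 of 8 lipoprotein assembly genes, 3 of 4 endocytic partners and 0 of 7 lipid and retinol receptor genes. Over all genes, 11.1% were highest on that array. Foxa2, Spink1 and Fgb of these lists exceeded both other mutant positive arrays there by over 1 log2 unit (1.35, 2.63 and 1.09). All 3 lay below the highest EYFP-negative array. The endocytic partners averaged 10.54 on it, against 10.07 and 10.17, and the regulators 8.01, against 7.73 and 7.89. Means of the other secreted proteins and lipoprotein assembly genes were also higher on it. The lipid and retinol receptor genes averaged lower, at 9.23 against 9.43 and 9.42. What part these cell types had in the values of the 10 genes was not tested.

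The 6 endothelial markers averaged 7.15 to 7.32 in mutant positive cells, 6.30 to 6.48 in mutant negative cells, 9.83 to 10.22 in wild-type positive cells, with 6.22 to 6.24 in wild-type negative cells. The 6 primitive erythroid markers measured averaged 5.89 to 5.99 in mutant positive cells, 5.96 to 7.98 in mutant negative cells, 11.37 to 12.13 in wild-type positive cells, with 6.14 to 8.63 in wild-type negative cells. The 3 heart markers averaged 11 to 11.60 in mutant positive cells, 9.19 to 9.84 in mutant negative cells, 8.73 to 9.75 in wild-type positive cells, with 9.43 to 10.05 in wild-type negative cells. The 3 trophoblast markers measured averaged 7.69 to 8.31 in mutant positive cells, 8.36 to 8.53 in mutant negative cells, 7.51 to 8.13 in wild-type positive cells and, for wild-type negative cells, 7.93 to 8.14.

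Same-numbered arrays of a genotype deviated from their group means together, so the sort difference was also read within pairs. The Afp difference, EYFP-positive minus EYFP-negative, was 1.91, -6.05 and -6.61 in the mutant pairs and -5.41, -6.38 and -5.04 in the wild-type pairs. For Ttr it was 0.67, -5.65 and -6.06 in the mutant pairs and -5.19, -6.61 and -4.09 in the wild-type pairs. For Rbp4 it was 0.70, -1.99 and -1.70 in the mutant pairs and -2.21, -3.37 and -1.86 in the wild-type pairs. The first mutant pair was therefore positive for all 3 carrier proteins and every other pair was negative. Apoe was positive in all 6 pairs, at 1.07, 1.24 and 1.55 in the mutant pairs and 2.74, 1.23 and 2.13 in the wild-type pairs. Amn was 0.39, -0.64 and -0.45 in the mutant pairs and -0.78, -0.87 and -0.89 in the wild-type pairs.

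For Apoa1 the pair differences were 1.71, -1.73 and -1.60 in mutants and 0.39, -1.84 and -0.12 in wild types. Both mutant pairs numbered 2 and 3 were thus lower in positive cells by over 1.5 log2 units, while only 1 wild-type pair was. Cubn was 1.87, -0.72 and -0.52 in the mutant pairs and 0.00, -0.33 and -0.08 in the wild-type pairs, and Apoa4 was 1.88, -0.25 and -1.01 in the mutant pairs and -0.12, -0.35 and -0.05 in the wild-type pairs.

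**Figure D4:**
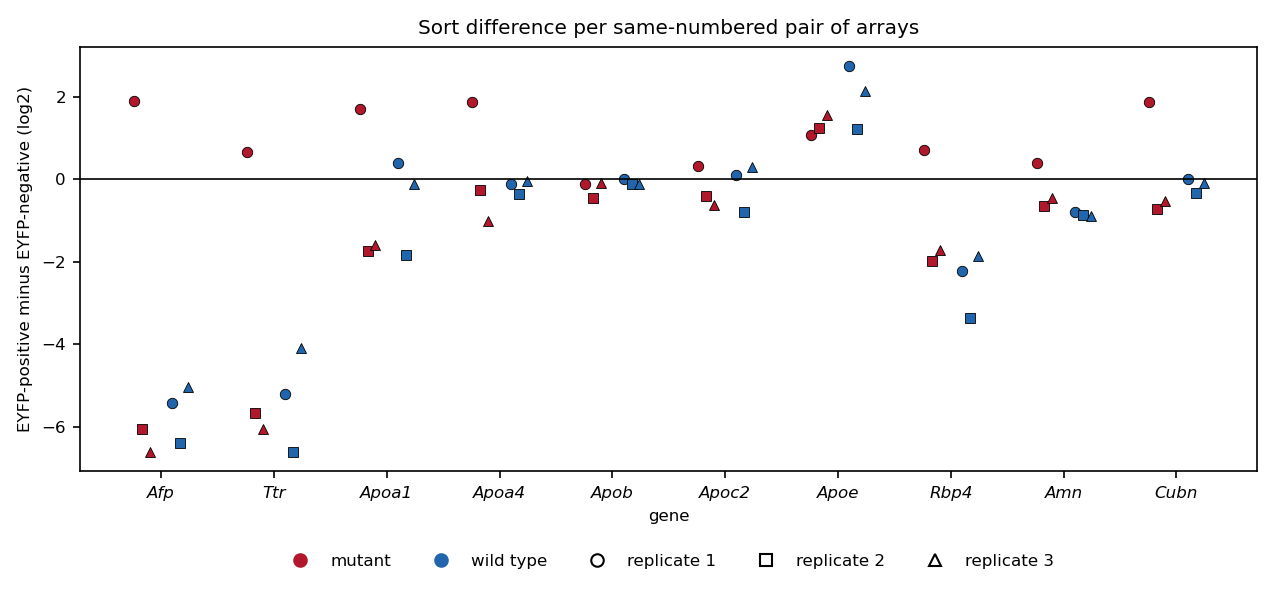
The difference between the EYFP-positive and EYFP-negative array of the same number is plotted for each gene in log2 units, with mutant pairs in red and wild-type pairs in blue and a symbol for each number. The first mutant pair lies above 0 for all genes but Apob, and Apoe is above 0 in all 6 pairs.

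Likeness to Afp was measured as Pearson's r over the 12 arrays, which share the 4 groups and the first mutant positive array, and it is given as a description. Among the other described genes r was 0.982 for Ttr, 0.965 for Rbp4, 0.89 for Amn, 0.767 for Apoa1, 0.694 for Apoc2, 0.633 for Apoa4, 0.622 for Cubn, 0.59 for Apob and -0.565 for Apoe. Over the 11 arrays without the first mutant positive one, it was 0.982 for Ttr, 0.959 for Rbp4, 0.778 for Cubn, 0.743 for Apoa4 and -0.83 for Apoe. Ttr and Rbp4 were as like Afp with that array as without it.

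The genes outside the 10 most like Afp over the 12 arrays were Spink1 (0.949), Fgb (0.93), Dtymk (0.907), Spag16, Efhc2, Fhl1, Matn3, Ypel1, Sp5 and Ccdc160 (0.884). Fgb codes for the fibrinogen beta chain, which liver and yolk sac endoderm secrete. Over the 11 arrays without the first mutant positive one they were Tfap2c (0.984), Fgfbp3, Spink1 (0.981), Pax3, Erbb3, Mthfd2l, Slc35f1, Cldn9, Pax6 and Sp8 (0.971). Only Spink1 was in both sets of 10. Tfap2c, the nearest over 11 arrays, was 7.27 on the first mutant positive array, against 9.34 to 9.93 on EYFP-negative arrays. The genes most like Apoe over the 12 arrays were Pdia5 (0.96), Hprt, Ano6, Uvrag and Gnb2 (0.946).

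Other genes of the same pathway were read from lists and tested in all comparisons. In wild-type positive against wild-type negative cells, 4 of the 13 other secreted plasma proteins measured fell, 0 rose and 9 did not pass. Over all genes, 3.61% were called lower and 4.63% higher in this comparison. The same shares apply to the lists that follow for these groups. Spink1 averaged 5.95 ± 0.21 in wild-type positive cells, against 9.39 ± 0.68 in wild-type negative cells, a difference of -3.44 ± 0.62 (limma adjusted p = 0.00466). Vtn, the matrix protein vitronectin, differed by -0.80 (adjusted p = 0.0182), Ambp, a plasma carrier and inhibitor precursor, by -0.72 (0.0347) and Fgb by -1.14 (0.0408). Ambp and Fgb did not pass without both wild-type arrays numbered 1, at limma adjusted p = 0.158 and 0.0791.

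Of the 4 endocytic partners measured, Lrp2, the megalin receptor that works with cubilin, fell by 0.98 on the log2 scale, to 7.27 ± 0.11 in wild-type positive cells against 8.25 ± 0.43 in wild-type negative cells (limma adjusted p = 0.0286). Dab2, the adaptor that binds megalin, rose by 0.70 (adjusted p = 0.0499). Without the first mutant positive array Dab2 did not pass (limma adjusted p = 0.065), and without both wild-type arrays numbered 1 neither passed, at 0.313 for Dab2 and 0.191 for Lrp2. Clu, the secreted chaperone clusterin, differed by 0.78 and did not pass (adjusted p = 0.0604, or 0.0131 with the arrays kept as pairs).

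Among the 8 endoderm regulators measured, 2 rose in wild-type positive cells, 1 fell and 5 did not pass. Sox7 averaged 10.21 ± 0.31 in wild-type positive cells, against 4.97 ± 0.20 in wild-type negative cells (limma adjusted p = 6.3e-09), and Sox17 averaged 12.09 ± 0.26 in wild-type positive cells, against 9.21 ± 0.41 in wild-type negative cells (0.000715). Sox7 was dim on 9 of the 12 arrays, which leaves the amount by which it rose uncertain. Both are SoxF factors that endothelium also expresses. Foxa1, a forkhead factor, averaged 7.64 ± 0.29 in wild-type positive cells, against 10.28 ± 0.20 in wild-type negative cells, a difference of -2.64 ± 0.23 (limma adjusted p = 2.1e-05). Of the 7 lipid and retinol receptor genes measured, only Scarb1, a receptor for high-density lipoprotein, was called, 1.14 ± 0.15 higher in wild-type positive cells (limma adjusted p = 0.000465). Of the 8 lipoprotein assembly genes measured, only Fabp1, a fatty acid carrier that was dim on all 12 arrays, was called, at -0.38 (limma adjusted p = 0.0386, or 0.0526 without the first mutant positive array and 0.139 without both wild-type arrays numbered 1). Mttp, which loads lipid onto Apob, differed by -0.57 (limma adjusted p = 0.131, or 0.00529 with the arrays kept as pairs). None of the 4 genes of the visceral endoderm marker list passed in limma, with adjusted p of 0.325 for Rhox5, 0.444 for Dpp4 and 0.864 for Ihh.

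In mutant positive against mutant negative cells, where 3.07% of all genes were called higher and 2.29% lower, the regulators Gata4 and Gata6 rose by 1.52 and 1.88 log2 units (limma adjusted p = 0.00229 and 4.56e-05). Both are endoderm and heart GATA factors. Foxa1 and Foxa2 fell by 2.19 and 1.76 (adjusted p = 0.000304 and 0.0335). Spink1 fell by 2.63 ± 0.62, at 6.87 ± 1.62 in mutant positive cells and 9.50 ± 0.21 in mutant negative cells (limma adjusted p = 0.0297, or 0.0536 without both wild-type arrays numbered 1). Without the first mutant positive array 3 of the 13 secreted proteins were called lower, Spink1 (limma adjusted p = 0.000211), Fgb (0.0166) and Fgg (0.0277), the last of which was dim on all 12 arrays. As that array was left out because it was known to stand apart, these calls are no added support. Clu rose by 1.25 (limma adjusted p = 0.0072) and Dab2 by 0.75 (0.0497, or 0.131 without that array and 0.0521 without both wild-type arrays numbered 1). Lrp2 differed by -0.64 and did not pass (limma adjusted p = 0.203), but did without that array (0.0358). With the arrays kept as pairs Lpl, the lipoprotein lipase, and Lrp8 also passed, at limma adjusted p = 0.044 and 0.0336 against 0.0627 and 0.112 otherwise.

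In mutant positive against wild-type positive cells, where 4.23% of all genes were called higher and 3.74% lower, 0 of the 13 other secreted proteins passed in limma, with or without the first mutant positive array. Gata4 rose by 1.48 and Gata6 by 1.19, and Sox7 fell by 5.08 and Sox17 by 4.21 (limma adjusted p = 0.00191, 5.43e-05, 8.28e-09 and 5e-05). Lpl rose by 1.32 (limma adjusted p = 0.00631) and Scarb1 fell by 0.69 (0.0136). Mttp rose by 0.75 (0.0454) and Abca1, which lipidates Apoa1, fell by 0.71 (0.0297), and neither passed without the first mutant positive array, at limma adjusted p = 0.154 and 0.101. In mutant negative against wild-type negative cells 0 of the 87 list genes measured passed in limma, and 6 had an unadjusted p under 0.05.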

How the data were processed

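RNA from 12 sorted-cell samples was measured on oligonucleotide arrays. The deposited table holds log2 expression values that the authors made with RMA, per the submitters' processing notes (its version and settings: not given in the sources used here). Scanner files were not used. RMA scales arrays to each other, and array medians lay between 6.98 and 7.06. Dim probe sets were kept. Of 45101 probe sets, 64 were controls, 34945 had 1 symbol, 932 had several and 9160 were not listed in the platform annotation. RefSeq names changed 0 symbols. Each gene was read at its brightest probe set by mean, giving 18193 genes.

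Group differences came from limma 3.58.1 (R 4.3.3) in 1 model of 4 groups, two-sided, with Benjamini-Hochberg adjustment over all genes and a threshold of 0.05. Errors of differences are SEs and those of means are SDs. With 3 arrays a group, the number of arrays limits the precision. The fit was tested on simulated data. The members and lists were chosen with earlier results of these data known. The lists held 97 genes, of which 87 had a single-symbol probe set and 10 were not analysed here. Genes outside the members were named by rule: the 3 of each pathway list with the smallest unadjusted p between wild-type sorts, those that account for a small count, the 10 most like Afp, the 5 most like Apoe, and the 10 with the largest gap on the first mutant positive array, clone-type names left out.

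Same-numbered positive and negative arrays deviated together within a genotype (r of 0.554, 0.403 and 0.413 in mutants and 0.19, 0.102 and 0.202 in wild types), so the numbers were read as pairs within a genotype; this comes from the data, not the labels. Across genotypes same-numbered arrays correlated at -0.244 to 0.00145. Differently numbered arrays across genotypes reached 0.243, above each wild-type pair, so the pairing is less certain in wild types. Alternatives changed the probe set rule, filter, normalization, variance model, weights, samples and blocking.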

Additional observations from a re-analysis of the deposited data

Results flagged for a closer look

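Among the 8 endoderm regulators measured, the sort difference itself, positive minus negative in mutants minus that in wild types, differed between genotypes for Sox7, Sox17, Gata6 and Gata4. For Sox7 it was -5.12 ± 0.24 log2 units (limma interaction, adjusted p = 4.12e-07), a size that is uncertain because Sox7 was dim on 9 of the 12 arrays. For Sox17 it was -3.93 ± 0.55 (limma adjusted p = 0.00231). For Gata6 it was 1.72 ± 0.16 (limma adjusted p = 1e-04) and for Gata4 1.70 ± 0.32 (0.0158). Hnf4a, Foxa1, Foxa2 and Foxa3 did not pass, with limma adjusted p between 0.673 and 0.82. The share of all genes that passed was not counted. Such differences were not particular to endoderm regulators. Of the endothelial markers, Cdh5, Tek, Tie1, Emcn and Cldn5 were lower too, and Kdr did not pass (limma adjusted p = 0.294). Of the heart markers, Myl7 and Tnnt2 were higher too, and Nkx2-5 did not pass (limma adjusted p = 0.0677). The groups had 3 arrays each, too few for a test of single arrays that stand out.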

How the results depend on the processing

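Between wild-type sorts, 3 of the 9 members tested were called. The count was 1 with all probe sets fitted without collapse to genes, 0 without both wild-type samples numbered 1, and 0 to 4 when single arrays were left out. The Afp, Ttr and Rbp4 differences kept their sign in all 22 alternatives but missed the threshold in 12, 8 and 6 of them, with adjusted p up to 0.212, 0.179 and 0.129. Averaging its probe sets put the Afp difference at -2.30 (adjusted p = 0.0841). Leaving out single arrays put Afp at -5.90 to -5.23, Ttr at -5.73 to -4.94 and Rbp4 at -2.76 to -2.16. Small differences that did not pass changed sign without 1 array: Apoa1 (-0.85 to 0.01) was 0.01 without wild-type negative 2, Apob (-0.16 to 0.00) 0.00 without wild-type positive 3, and Apoc2 (-0.27 to 0.10) 0.10 without wild-type positive 2. Between negative cells Amn was 0.00 with array weights, -0.02 without mutant negative 1 or 2, and -0.16 without wild-type negative 1 (-0.16 to 0.13 over single arrays) or both wild-type samples numbered 1. Apoc2 had no value with dim genes left out. With the pairs as a block, 4 members were called, Amn being the one added, and with the replicate number alone as a block, 3. No member was called between negative cells under any alternative. Calls among the list genes ranged from 25 to 40 (34 as reported) between wild-type sorts, 18 to 31 (25) between mutant sorts, 22 to 30 (27) between positive cells and stayed at 0 between negative cells. Counts over all genes moved to 1486 with the pair block between mutant sorts (975 as reported), 844 with only the groups compared between positive cells (1450), 760 without both wild-type samples numbered 1 between wild-type sorts (1499), and 2 without mutant negative 2 between negative cells (0). The causes were not tested.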
